A study of Homo sapiens with 24 samples.

Results

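The histone H4 genes of the HIST1 cluster on human chromosome 6 were examined in eCLIP peak lists from 293T cells. The group holds 10 genes: HIST1H4A, HIST1H4B, HIST1H4C, HIST1H4D, HIST1H4E, HIST1H4H, HIST1H4I, HIST1H4J, HIST1H4K and HIST1H4L. A peak was assigned to a gene when it shared at least 1 nt with a window of 501 or 601 nt around that gene on hg19 and lay on the gene's strand, without regard to the peak's height. By this rule 225 of the 269336 peaks in the 7 lists belonged to the H4 genes. No peak of any list lay in a window on the opposite strand (0 in all 7).

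eCLIP maps where a protein touches RNA: cells are crosslinked with ultraviolet light, the protein is precipitated with its bound RNA fragments, and the ends of the resulting cDNAs are sequenced beside a size-matched input. 293T is an established line derived from human embryonic kidney cells. All cells received ultraviolet light at 254 nm and 400 mJ/cm2 while on the plate, and no group carried a genetic change or drug treatment in the labels. The 24 samples of the series include 7 immunoprecipitations with a peak list, their 7 inputs, and 10 samples of an RNase I series that were not analysed here. Of the 7 lists, 2 came from an RBFOX2 antibody (replicates 1 and 2), 4 from an SLBP antibody (replicates 1 to 4) and 1 from an isotype control IgG. RNase I, which trims the RNA before precipitation, was used at 40 U in all of these except SLBP replicates 3 and 4 and their inputs, which received 5 U. The lists held 10122 to 23034 peaks for SLBP, 74902 and 97594 for RBFOX2 and 28361 for IgG. They give no read counts, so the depth behind a fold is unknown. The labels do not say that replicates were separate cultures, so every SD describes only how far these libraries vary. That variation may be technical. Each permutation p-value likewise compares only these libraries with each other.

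Histone H4 pairs with histone H3 in the core of the nucleosome, and dividing cells make both in bulk while they copy their DNA. The mRNAs of these genes have no introns and no poly(A) tail, and end instead in a short RNA hairpin just after the coding sequence. SLBP, the stem-loop binding protein, binds that hairpin and is needed for the processing and translation of these mRNAs. RBFOX2, a splicing regulator that binds GCAUG elements, many of them in introns, serves here as an antibody against an unrelated RNA-binding protein.

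A few sequences help to read the results, all from RefSeq on GRCh38.p14, a later build than that of the peaks. The first shows the kind of element that SLBP binds. It comes from the 3′ end of HIST4H4, a histone H4 gene on chromosome 12 that is not one of the 10 genes, at chr12:14770718-14770745 on the minus strand. The capitals mark a perfect hairpin of 16 bases, with 6 base pairs and a loop of 4 bases, which ends 4 bases before the end of the gene.
HIST4H4 hairpin: ccaaaaGGCCCTTTTCAGGGCCcccaaa
The second pair is shown because HIST1H4J and HIST1H4K are near-copies in the bases before their start and stood far apart in the SLBP lists. These are the 250 bases before the start of each gene, at chr6:27823842-27824091 on the plus strand and at chr6:27831561-27831810 on the minus strand. Capitals mark the 5 positions at which the pair differs.
HIST1H4J: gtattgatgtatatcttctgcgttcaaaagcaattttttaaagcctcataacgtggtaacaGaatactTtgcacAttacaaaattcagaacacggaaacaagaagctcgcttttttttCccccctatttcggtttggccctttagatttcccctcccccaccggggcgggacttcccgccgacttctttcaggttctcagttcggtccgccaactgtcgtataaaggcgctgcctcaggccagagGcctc
HIST1H4K: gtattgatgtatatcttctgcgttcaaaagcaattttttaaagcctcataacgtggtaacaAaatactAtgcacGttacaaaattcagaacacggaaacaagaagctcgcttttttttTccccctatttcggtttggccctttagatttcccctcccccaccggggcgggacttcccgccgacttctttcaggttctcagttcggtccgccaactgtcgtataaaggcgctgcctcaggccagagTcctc
Compared position by position without gaps, the pair was thus 98% identical. On the same count, the other 27 pairs among the 8 H4 genes in the promoter table matched at 22% to 61.6% of positions. Sequences that are out of register score low on such a count, so the low values do not show how far these promoters have diverged. All 8 carried GGTCCG, the core of an element long known in H4 promoters, 44 to 47 bases before the start. Over all 35116 promoters of the table, each of 300 bases, 6.18% held GGTCCG on the given strand and 11.3% on either strand. A match of letters is a description and not evidence of binding.

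SLBP peaks in the H4 genes were nearly all far above input, and 7 of the 10 genes were enriched in every SLBP library. Enriched here means that the authors' −log10 p-value was at least 5 and their log2 fold over the paired input at least 3, which is 8-fold. HIST1H4A, HIST1H4B, HIST1H4C, HIST1H4D, HIST1H4E, HIST1H4H and HIST1H4J had an enriched peak in all 4 SLBP libraries. HIST1H4K and HIST1H4L had one in 1 library each, and HIST1H4I in none. The number of genes with an enriched peak was 8, 7, 7 and 8 in SLBP replicates 1 to 4 and averaged 7.5 ± 0.58 (SD, n = 4). It was 0 in both RBFOX2 libraries and 0 in IgG. As background, 1.23%, 1.27%, 1.70% and 2.33% of all peaks passed the same limits in SLBP replicates 1 to 4, 7.95% and 7.66% in RBFOX2 replicates 1 and 2, and 0.180% in IgG. The share among H4 peaks was 97.5% (39 of 40), 91.5% (43 of 47), 94.2% (49 of 52) and 95.5% (42 of 44) in the SLBP lists. It was 0 of 14 and 0 of 18 in RBFOX2 and 0 of 10 in IgG. The SLBP shares thus stood far above their lists' background in all 4 libraries.

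No H4 peak of the SLBP lists lay below input (0 in all 4), where 7.02%, 9.45%, 23.4% and 17.0% of all peaks did in replicates 1 to 4. Their median log2 fold was 6.30, 7.61, 5.66 and 7.12 in replicates 1 to 4, where the median of all peaks in the same lists was 1.57, 1.46, 0.66 and 1.17. Against enriched peaks alone the H4 genes were less distinct, since the medians of all enriched peaks were 5.82, 7.17, 5.28 and 6.59. H4 peaks made up 13.7%, 18.5%, 17.0% and 17.8% of all enriched SLBP peaks. Within chromosome 6 from 26 to 28 Mb, which spans HIST1, their share of the enriched peaks was 22.7% ± 2.8 (SD, n = 4). Many peaks of 1 list touch end to end, so these counts hold split sites: after joining touching pieces, the mean number of enriched H4 peaks fell from 43.25 ± 4.19 to 17.25 ± 0.96 per library (SD, n = 4).

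**Figure D1:**
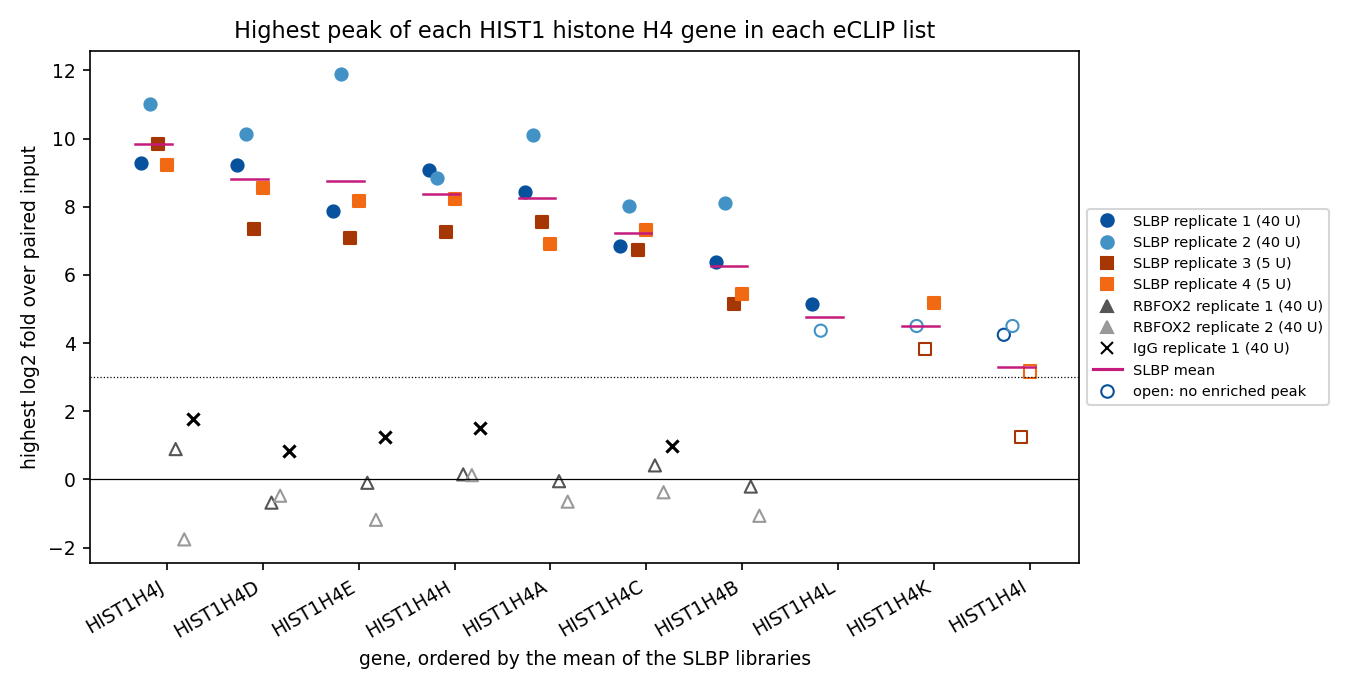
Highest log2 fold over the paired input (y axis) of each of the 10 H4 genes (x axis, ordered by the SLBP mean) in each of the 7 libraries. Filled symbols have an enriched peak, open symbols none (IgG crosses have none), the pink line is the mean of the SLBP libraries with a peak, and the dotted line is at 3; 7 genes lie above 5 in every SLBP library, and no RBFOX2 or IgG point reaches 2.

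The genes are described next by their highest peak, in the order of its mean over the SLBP libraries. HIST1H4J had the highest, with log2 folds of 9.29, 11.00, 9.83 and 9.23 in replicates 1 to 4 (mean 9.84 ± 0.82, SD, n = 4), which are 624-fold, 2049-fold, 910-fold and 601-fold over input. Its best peak ranked 13, 5, 1 and 7 among all peaks of the 4 lists, and was the tallest of the whole list in replicate 3. HIST1H4D followed with 9.23, 10.14, 7.35 and 8.55 (mean 8.82 ± 1.17, n = 4). HIST1H4J exceeded HIST1H4D in 4 of 4 libraries, by 1.02 ± 1.03 (SD).

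HIST1H4E reached 7.87, 11.89, 7.08 and 8.18 (mean 8.76 ± 2.14, n = 4). Replicate 2 gave the highest value at this gene, which was the tallest peak of that list. HIST1H4H gave 9.09, 8.85, 7.27 and 8.23 (mean 8.36 ± 0.81, n = 4), and its tallest peaks in replicates 1 and 2 were slivers of 3 and 6 nt at the 3′ edge. HIST1H4A gave 8.44, 10.10, 7.54 and 6.91 (mean 8.25 ± 1.39, n = 4). The order among HIST1H4D, HIST1H4E, HIST1H4H and HIST1H4A was not stable: their successive mean differences of 0.06, 0.40 and 0.11 were smaller than their SDs of 1.31, 1.84 and 1.12. With the width-weighted mean of a gene's peaks in place of the highest, HIST1H4D averaged 8.46 and HIST1H4A 7.17 over the SLBP libraries. HIST1H4H (6.29) and HIST1H4E (6.16) were then about level with HIST1H4C (6.17).

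HIST1H4C, the next in order, gave 6.84, 8.02, 6.72 and 7.33 (mean 7.23 ± 0.59, n = 4), the smallest spread of the 7 genes on this scale. HIST1H4B was the lowest of the 7, with 6.38, 8.10, 5.16 and 5.44 (mean 6.27 ± 1.33, n = 4). HIST1H4A was above HIST1H4C, and HIST1H4C above HIST1H4B, in 3 of 4 libraries each, by 1.02 ± 1.09 and 0.96 ± 0.92 (SD). Replicate 2 gave the highest value of the 4 libraries at every one of these genes except HIST1H4H. The scaling of folds between lists is not given, so these means describe the libraries side by side.

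HIST1H4L, HIST1H4K and HIST1H4I formed a separate low end. HIST1H4L had peaks in SLBP replicates 1 and 2 only, with log2 folds of 5.15 and 4.36, and the first alone passed the p-value limit (−log10 p of 6.85 and 3.97). HIST1H4K had peaks in replicates 2, 3 and 4, at 4.50, 3.83 and 5.17, and passed in replicate 4 alone (−log10 p of 4.42, 2.89 and 6.21). HIST1H4I had a peak in all 4 libraries, at 4.24, 4.50, 1.24 and 3.17, and its −log10 p of 3.40, 4.42, 0.42 and 1.29 missed the limit each time. In every SLBP library the lowest of the other 7 genes exceeded the highest of these 3, by 1.23, 3.52, 1.33 and 0.28 in replicates 1 to 4; the grouping was made from enrichment in these same libraries, so the gap is a description.

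The low peaks carried values that other peaks of their lists shared exactly, in numbers that differed widely. The HIST1H4I value was shared by 17, 4, 1848 and 1037 peaks of replicates 1 to 4, itself included, and in replicate 2 HIST1H4I and HIST1H4K had the identical fold and p-value. On the same count, the value of the tallest HIST1H4K peak was shared by 4, 4 and 2 peaks in replicates 2, 3 and 4. That of HIST1H4L was shared by 2 and 6 peaks in replicates 1 and 2. Among the tallest SLBP peaks of the other 7 genes 1 value was shared, that of HIST1H4C in replicate 4, with 1 other peak. How the authors' counting divided reads that fit several H4 genes is not stated, so the levels of the genes, HIST1H4J and HIST1H4K among them, are uncertain. The transcript sequences of this pair were not compared here. HIST1H4I also lies within the longer HIST1H2BK gene, which runs on the other strand in the RefSeq table. The amount of each H4 mRNA in the cells was not analysed here, and its part in the order of the genes was not tested.

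HIST1H4K and HIST1H4L nevertheless had their tallest peaks at a repeated place. The tallest HIST1H4K peaks lay at positions 27798963 to 27799007, 27798964 to 27799007 and 27798963 to 27799010 in replicates 2, 3 and 4 (hg19, minus strand). HIST1H4L peaks lay at 27840987 to 27841023 and 27840993 to 27841026 in replicates 1 and 2. At both genes these were near the 3′ end of the window. The tallest HIST1H4I peaks, on the plus strand, lay at 27107256 to 27107335, 27107292 to 27107376, 27107314 to 27107340 and 27107281 to 27107312 in replicates 1 to 4. HIST1H4I had a lower second peak at 27107427 to 27107453 in replicate 2. HIST1H4K had lower second peaks at 27799036 to 27799072 and 27799035 to 27799078 in replicates 3 and 4.

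The enriched SLBP signal rose toward the 3′ end of the gene, where the hairpin lies in histone mRNAs. In 7 genes there were 16 stretches in which every nucleotide was under an enriched peak in each of the 4 SLBP libraries, called shared regions here. HIST1H4A (26022228 to 26022272), HIST1H4B (26027145 to 26027197) and HIST1H4D (26188955 to 26189009) had 1 such region each, of 45, 53 and 55 nt. HIST1H4J had 2, HIST1H4C had 3, and HIST1H4E and HIST1H4H had 4 each. The longest were the last region of HIST1H4E, 159 nt at 26205089 to 26205247, and that of HIST1H4H, 144 nt at 26285358 to 26285501. The exact place of each hairpin on hg19 was not used here, so distances are given from the end of the signal itself.

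In the 4 genes with several shared regions, the last was usually the higher. In HIST1H4E the highest log2 fold of the first region was 5.31, 5.46, 4.54 and 5.56 in replicates 1 to 4 and that of the last was 7.87, 11.89, 7.08 and 8.18, a mean difference of 3.54 ± 1.93 (SD, n = 4). In HIST1H4H the first gave 5.37, 5.21, 5.40 and 6.35 and the last 8.20, 8.85, 7.27 and 8.23, a mean difference of 2.55 ± 0.85 (SD, n = 4). In HIST1H4C the first gave 5.27, 4.96, 4.83 and 5.58 and the last 6.82, 7.59, 6.22 and 7.33, a mean difference of 1.83 ± 0.55 (SD, n = 4). The last region was higher in 4 of 4 libraries at each of these 3 genes, and the first and last values did not overlap. At all 4 genes the last region was also the longest, so its highest value tended to be taken over more peaks. It covered 45 nt against 25 nt for the first at HIST1H4C, and 47 nt against 10 nt at HIST1H4J. In HIST1H4J the last region exceeded the first by 1.62 ± 1.42 on the log2 scale (SD, n = 4). This held in 3 of 4 libraries, with −0.24 in replicate 4. Over the 7 genes and 4 libraries, the enriched peak nearest the 3′ end was higher than the one nearest the 5′ end in 27 of 28 cases, HIST1H4J in replicate 4 being the exception. The peak nearest the 3′ end was itself the tallest in 20 of the 28 cases. The 8 others were HIST1H4B in replicates 1, 2 and 3, HIST1H4C in replicate 1, and HIST1H4A, HIST1H4D, HIST1H4H and HIST1H4J in replicate 4. The tallest peak touched the last shared region in all 4 libraries at 3 of the 7 genes.

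The 3′ edge of the signal varied little between libraries in some genes and more in others. It moved by 1 nt over the 4 SLBP libraries in HIST1H4E, by 3 nt in HIST1H4H, by 4 nt in HIST1H4A and by 7 nt in HIST1H4J. It moved by 14 nt in HIST1H4C, 15 nt in HIST1H4D and 18 nt in HIST1H4B. At 5 genes the edges at 40 U (replicates 1 and 2) and 5 U (replicates 3 and 4) of RNase I did not overlap. The 5 U edge lay upstream at 4 of them, on average by 17.5 nt at HIST1H4B, 9 nt at HIST1H4D, 4 nt at HIST1H4A and 2 nt at HIST1H4H. It lay downstream at HIST1H4C, with edges at 26104496 and 26104508 for 40 U and 26104510 in both 5 U libraries. At HIST1H4E and HIST1H4J the edges of the 2 amounts met or overlapped. No test was run on these edges.

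**Figure D2:**
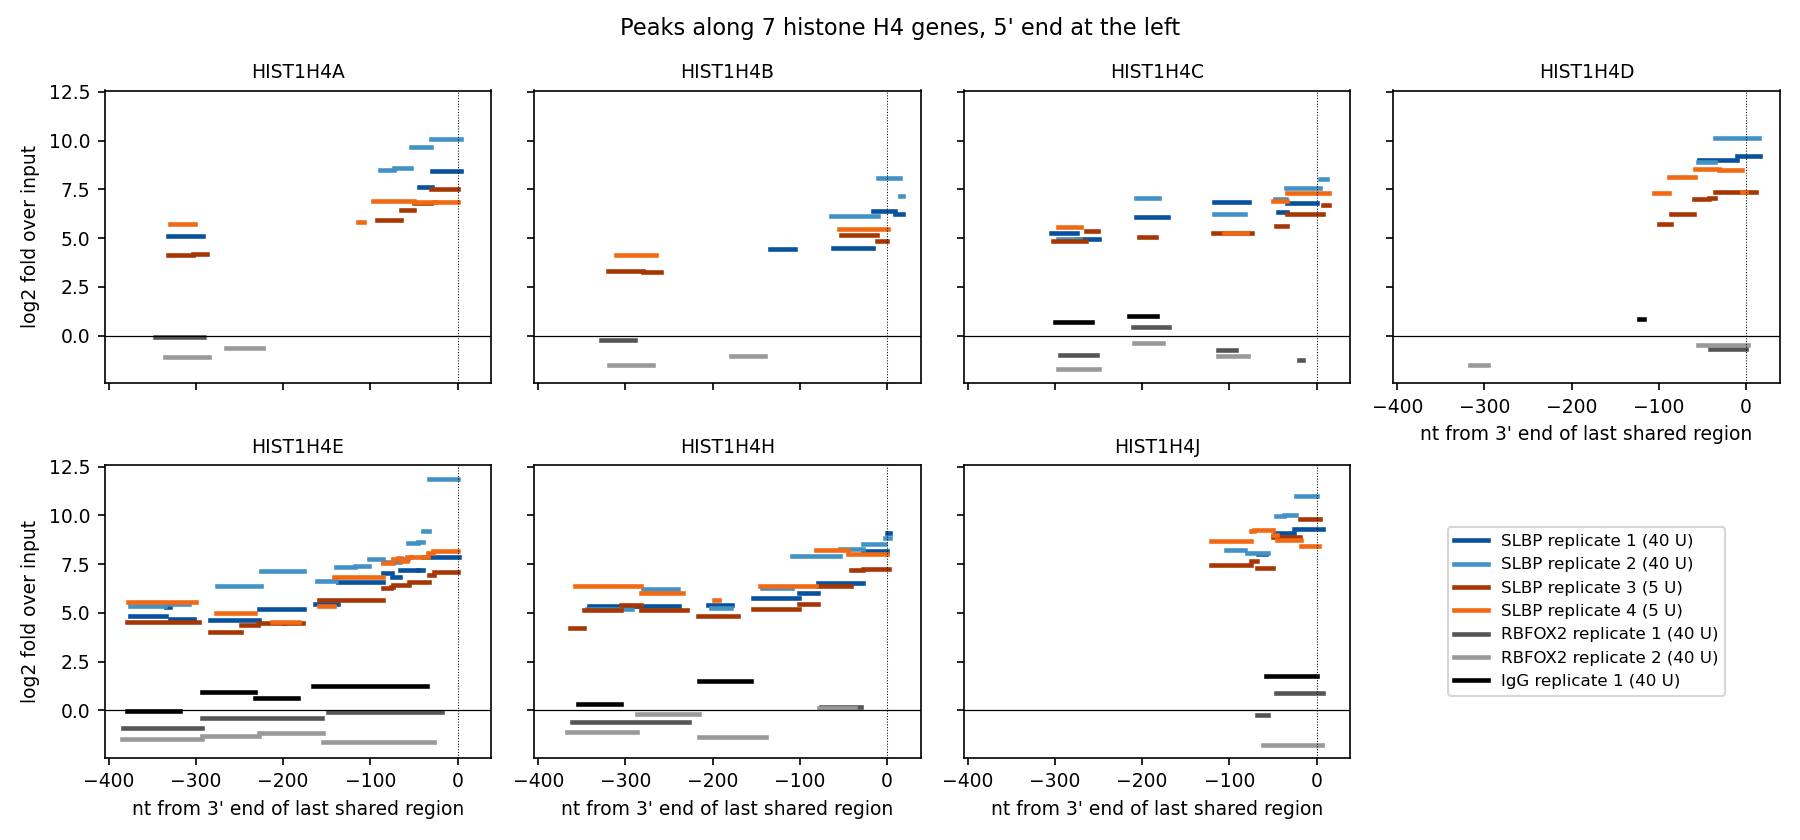
Peaks of the 7 libraries along 7 H4 genes; each bar spans a peak, the x axis is the distance in nt from the 3′ end of the last region shared by all SLBP libraries, with the 5′ end at the left, and the y axis is the log2 fold over the paired input. SLBP bars climb toward 0 on the x axis in most panels, while RBFOX2 and IgG bars lie between −1.76 and 1.77 on the y axis.

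RBFOX2 and IgG lists also had peaks on H4 genes, none of them enriched: most RBFOX2 peaks lay below input, and 9 of the 10 IgG peaks lay above it. RBFOX2 had 14 and 18 H4 peaks in replicates 1 and 2, at HIST1H4A, HIST1H4B, HIST1H4C, HIST1H4D, HIST1H4E, HIST1H4H and HIST1H4J in both libraries, and none at the other 3 genes. Of these peaks 11 (78.6%) and 17 (94.4%) had a log2 fold below 0, against 32.6% and 31.0% of all peaks of the lists. Their median log2 folds were −0.33 and −1.14, where the medians of the whole lists were 0.73 and 0.86. RBFOX2 signal on H4 mRNA thus stood lower against input than the typical peak of its own list in both libraries.

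Gene by gene, the highest RBFOX2 folds ranged from −1.76 to 0.89. HIST1H4J held both extremes, with 0.89 in replicate 1 and −1.76 in replicate 2. HIST1H4H was the one gene above 0 in both libraries, at 0.15 and 0.13, with −log10 p near 0 in both. HIST1H4C lay at 0.41 and −0.38. The highest peaks of HIST1H4A (−0.05 and −0.65), HIST1H4B (−0.21 and −1.07), HIST1H4D (−0.68 and −0.48) and HIST1H4E (−0.10 and −1.18) were below 0 in both libraries.

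The single IgG library had 10 H4 peaks, at 5 of the genes, and no replicate to set beside them. Its highest log2 folds were 1.77 at HIST1H4J, 1.504 at HIST1H4H, 1.24 at HIST1H4E, 0.99 at HIST1H4C and 0.83 at HIST1H4D. The IgG median of 0.88 lay below the 1.31 of its list, and 1 of the 10 peaks (10%) was below input, against 10.7% of the list. The HIST1H4E peak was the one IgG peak here to pass the p-value limit, with a −log10 p of 5.93, and it missed the fold limit. Along HIST1H4E the IgG folds from 5′ to 3′ were −0.04, 0.93, 0.65 and 1.24, and those of RBFOX2 were −0.92, −0.40 and −0.10 in replicate 1 and −1.49, −1.30, −1.18 and −1.60 in replicate 2. At HIST1H4E a rise toward the 3′ end was thus also present, over a smaller range, in IgG and RBFOX2 replicate 1. From first to last peak, RBFOX2 replicate 2 rose at HIST1H4A, HIST1H4B, HIST1H4C, HIST1H4D and HIST1H4H, there from −1.09 to 0.13. RBFOX2 replicate 1 rose at HIST1H4H (−0.61 to 0.15) and HIST1H4J (−0.27 to 0.89) and fell at HIST1H4C (−1.02 to −1.25). IgG rose at HIST1H4C (0.69 to 0.99) and HIST1H4H (0.31 to 1.504). At each of the 7 genes enriched in all SLBP libraries, the lowest SLBP value exceeded the highest RBFOX2 or IgG value by at least 5.36 on the log2 scale. These genes were chosen for SLBP enrichment, and the scaling of folds between lists is not given. The gap is therefore a description only.

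The length of RNA under enriched peaks compares SLBP with RBFOX2 without averaging folds. It is the sum over a gene's enriched peaks, which need not touch. HIST1H4E had the largest total, 345, 329, 347 and 312 nt in SLBP replicates 1 to 4, and HIST1H4H followed with 288, 261, 336 and 276 nt. HIST1H4C had 177, 147, 176 and 117 nt. HIST1H4A had 90, 93, 137 and 132 nt, HIST1H4B 109, 83, 114 and 102 nt, HIST1H4J 65, 92, 124 and 124 nt, and HIST1H4D 70, 70, 111 and 106 nt. The gene with the tallest peak, HIST1H4J, thus had one of the smallest enriched totals of these genes. Every RBFOX2 value was 0 nt. Since the 7 genes were singled out for having an enriched peak in all 4 SLBP libraries, their values above 0 follow from that choice, and the comparison with RBFOX2 at them is a description without a test. Over all 10 genes, the mean was 120 nt per gene in SLBP. RNase I differs between the antibodies in part, since replicates 3 and 4 of SLBP received 5 U.

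SLBP at 5 U of RNase I was compared with SLBP at 40 U, a gentler against a stronger trimming of the RNA. Enriched nucleotides at 5 U were above those at 40 U in both libraries at 3 genes: HIST1H4J by 45.5 nt, HIST1H4A by 43 nt and HIST1H4D by 38.5 nt on average. Among the 7 genes enriched throughout, these had the 3 smallest totals at 40 U. The exact two-sided permutation p was 0.333 at each, the smallest that 2 libraries against 2 can give. Any gene whose libraries separate by amount gets this value, so it adds nothing to the separation by which these genes were picked. At HIST1H4A the difference was 21 nt, with overlapping libraries (exact permutation p = 0.667), when a log2 fold of at least 5 was required. At HIST1H4H the difference was 31.5 nt and at HIST1H4B 12 nt, with overlapping libraries, and HIST1H4H moved to 1.5 nt without replicate 3 and to 61.5 nt without replicate 4. HIST1H4E and HIST1H4C went the other way, by −7.5 and −15.5 nt, again with overlap. Summed over the 10 genes, 40 U gave 1128 ± 75.0 nt and 5 U gave 1281 ± 90.5 nt (SD, n = 2 each). The mean difference per gene was 15.3 nt, and it was 8.9 nt without replicate 3 and 21.7 nt without replicate 4. With a log2 fold of at least 5 required it was 3.65 nt.

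**Figure D3:**
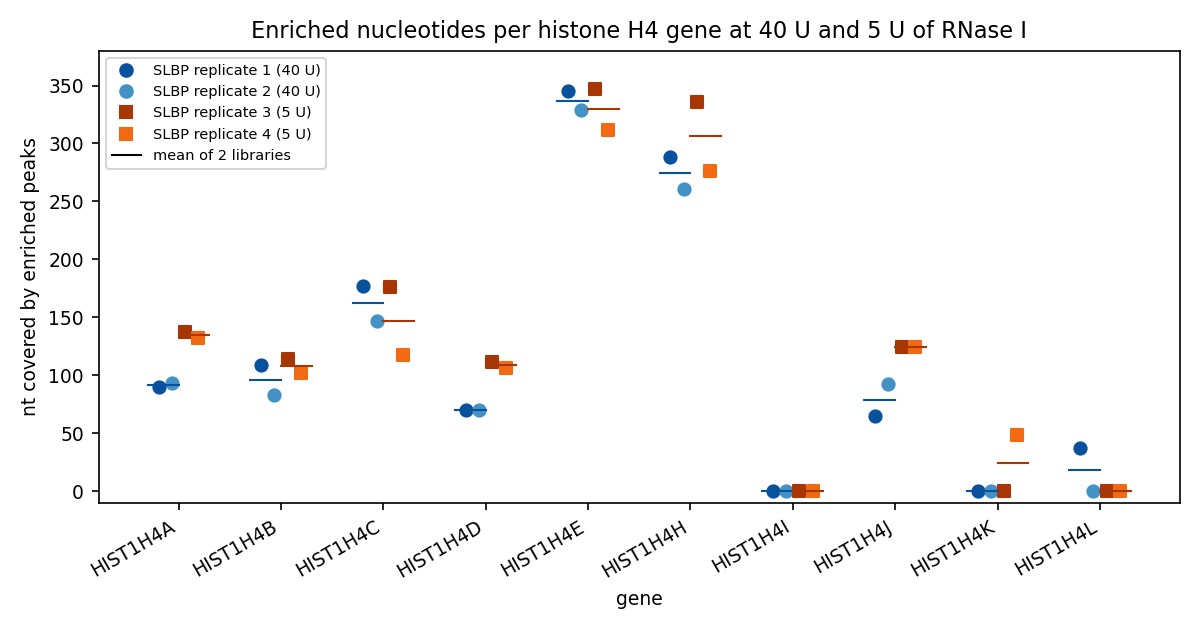
Nucleotides covered by enriched SLBP peaks (y axis) in each H4 gene (x axis), for the 2 libraries at 40 U of RNase I (blue circles) and the 2 at 5 U (orange squares), with the mean of each pair as a line. The pairs separate at HIST1H4A, HIST1H4D and HIST1H4J, and HIST1H4E and HIST1H4H have the largest totals at both amounts.

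Peak height did not follow length. The highest fold was lower in both 5 U libraries than in both 40 U libraries at HIST1H4A, HIST1H4B, HIST1H4D, HIST1H4H and HIST1H4I. The mean differences were −2.05, −1.94, −1.73, −1.22 and −2.17 on the log2 scale. The last of these rests on HIST1H4I peaks that were not enriched in any library. The libraries overlapped at HIST1H4E, HIST1H4J and HIST1H4C, where the mean differences were −2.25, −0.61 and −0.40. The whole lists were also lower at 5 U, with median log2 folds of 0.66 and 1.17 against 1.57 and 1.46 at 40 U. Their tallest peaks reached 9.83 and 9.51 at 5 U against 10.81 and 11.89 at 40 U. The medians of all enriched peaks overlapped, at 5.28 and 6.59 against 5.82 and 7.17. The 2 amounts were used in different replicates, each over an input of its own, and the scaling between lists is not given. RNase I amount and library therefore cannot be told apart here.

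Within their own lists, H4 peaks lay both among the tallest peaks and among the lower enriched ones. Of the 10 tallest SLBP peaks in each list, 0, 2, 2 and 2 lay in H4 genes in replicates 1 to 4, and of the 50 tallest 9, 10, 10 and 13 did, where their share of all enriched peaks was 13.7%, 18.5%, 17.0% and 17.8%. Of the 7 genes, 6, 7, 6 and 6 had their best peak among the 100 tallest of the list. The gene that ranked last of the 7 was HIST1H4B in replicates 1, 3 and 4, at ranks 102, 153 and 169, and HIST1H4C in replicate 2, at rank 77. H4 peaks were spread over most of the range of enriched folds.

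**Figure D4:**
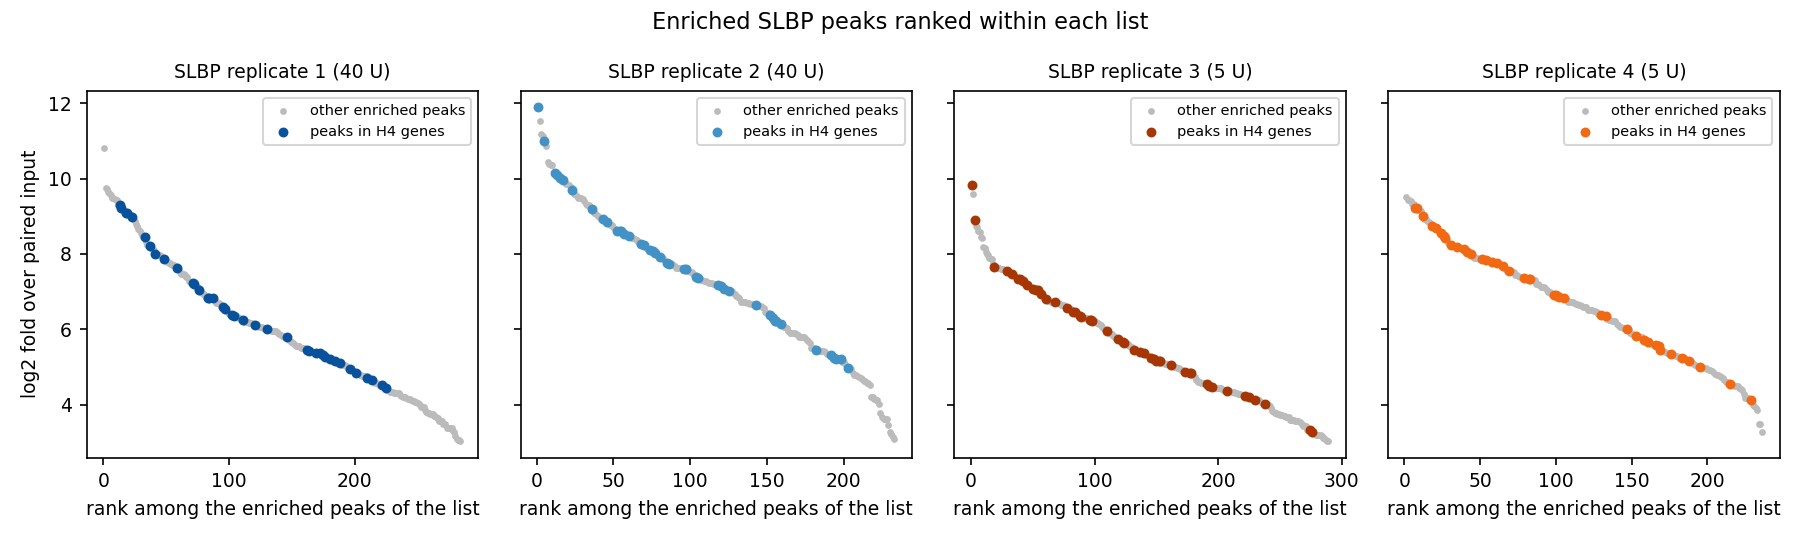
Enriched SLBP peaks of each list ranked by log2 fold over the paired input (x axis, rank among the enriched peaks; y axis, log2 fold), with peaks in the 10 H4 genes in colour and all other enriched peaks in grey, 1 panel per library. H4 peaks hold rank 1 in replicates 2 and 3 and are found along most of each curve.

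The H3 genes of HIST1, whose products pair with H4, gave a like picture on a smaller count. Of 10 H3 windows, 6, 6, 5 and 5 had an enriched SLBP peak in replicates 1 to 4, on average 5.5 ± 0.58 (SD, n = 4) beside 7.5 ± 0.58 for H4. In all 4 libraries 5 H3 genes were enriched, and 4 were enriched in none. H3 peaks numbered 27, 19, 28 and 19, of which 24, 19, 24 and 19 were enriched, and their median log2 folds were 6.37, 7.61, 5.30 and 6.80. The H4 medians exceeded these in replicates 3 and 4 and lay slightly below them in replicates 1 and 2, so the order of the families by height was not the same in every library. RBFOX2 had 5 and 10 H3 peaks and IgG had 3, and 0 of them were enriched. The H3 windows came from general knowledge of the cluster and were not checked against an annotation of hg19.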

How the data were processed

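The authors deposited 1 peak list per immunoprecipitation. Each line holds an interval, its strand, the −log10 of a p-value and a log2 fold. The deposited log2 folds set each immunoprecipitation over its paired input; the lists have no header, and units were read from the values. Per the submitters' processing notes, reads were handled with cutadapt, STAR, GATK, Picard and SAMtools on hg19. Tool versions, the peak caller and the scaling of folds are not given in the sources. The deposited −log10 values stop at 400 and pile up again at 15.66, so they served only as a filter.

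Peaks were matched to gene windows (at least 1 nt, same strand) with Python 3.11.15, numpy 2.4.6 and scipy 1.17.1. Enriched nucleotides per gene were compared between RNase I amounts by two-sided exact permutation tests. The planned test of SLBP against RBFOX2 is not read as support, since the genes described were chosen for SLBP enrichment and every RBFOX2 value was 0. The overlap and merging steps were tested on simulated data. All 10 member genes are named, and H3 genes only as a group. The members, windows, limits and lists were chosen with earlier results of these data known, and the comparison of first and last regions was chosen after the lists were seen. Promoter sequences were matched by symbol for 8 of the 10 genes. Alternatives were other limits, overlaps and windows, another peak per gene, joined peaks, each replicate left out, and replicates paired by number. Inputs entered only through the authors' folds, and the RNase I series was not analysed here.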

Additional observations from a re-analysis of the deposited data

Results flagged for a closer look

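Over the 4 SLBP libraries, 37 values of the H4 genes were examined for 1 library far from the others, by its gap to the nearest library as a share of the whole range (Dixon's test at its 95% critical value). Of these, 5 passed. In 4 of them, at HIST1H4K and HIST1H4L, 3 libraries were at 0, so the share is 1 whatever the other value is, and they say only that the gene was enriched in 1 library. For values that vary in every library, chance passes about 1 in 20. At HIST1H4K, replicate 4 had 48 enriched nt and 1 enriched peak where the others had 0, a share of 1 for both values. At HIST1H4L, replicate 1 had 37 enriched nt and 1 enriched peak where the others had 0, again a share of 1 for both. At HIST1H4E, the last shared region exceeded the first by 6.43 on the log2 scale in replicate 2 and by 2.62 in the nearest library, a share of 0.979.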

How the results depend on the processing

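Over 350 alternatives of 37 results, the number of H4 genes with an enriched peak stayed at 0 in RBFOX2 and in IgG under every limit, overlap and window tried. In SLBP its mean was 8.5 with a −log10 p of at least 3, 7 with at least 10 and 7.5 otherwise, and 7.33 to 7.67 with 1 replicate left out. The median over genes of the highest log2 fold was 7.74; it was 6.17 with the width-weighted mean of a gene's peaks and 7.30 to 7.94 with 1 replicate left out. Enriched peaks averaged 17.25 in place of 43.25 after touching peaks were joined, and 41.3 to 44.7 with 1 replicate left out. With a log2 fold of at least 5, enriched nucleotides per gene exceeded RBFOX2 by 102 in place of 120, and 5 U exceeded 40 U by 3.65 in place of 15.3. Leaving out 1 replicate gave 116 to 125 and 8.9 to 21.7. The 5 U minus 40 U difference changed sign at HIST1H4B (−10 at that fold limit, −1 without replicate 2), HIST1H4C (14 without replicate 4) and HIST1H4E (0.5 without replicate 1, 10 without replicate 4). With 1 replicate left out these ran from −1 to 25, from −45 to 14 and from −25 to 10; the cause was not tested. A replicate block on numbers 1 and 2 gave 112.8 enriched nucleotides per gene; all RBFOX2 values were 0, so whether the numbers pair the libraries could not be checked, and they share only a number. Depth is unknown, so for a gene without a peak, absence of binding and lack of detection cannot be told apart.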
